A study of Mus musculus with 8 samples.

Results

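Mitochondria are reshaped by a small set of membrane-remodelling proteins, and the 8 genes described here encode the core of that set. Mfn1, Mfn2 and Opa1 encode GTPases that fuse mitochondria, Dnm1l (Drp1), Fis1 and Mff encode the division GTPase and its recruiters, and Oma1 and Yme1l1 encode inner-membrane proteases that cut OPA1. They were chosen by gene symbol, as named members of this pathway, and all 8 of the 8 were found among the 17847 genes of the table.

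The RNA came from muscle stem cells, the Pax7-expressing satellite cells that repair skeletal muscle, sorted from adult C57Bl/6 mice. Each genotype, wild-type and Cox10-/-, has 4 libraries, labelled as replicates 1 to 4. Cox10-/- animals are described as carrying a floxed Cox10 allele and a tamoxifen-dependent Cre under Pax7, so the deletion was aimed at Pax7-expressing cells. Animals of both genotypes are labelled as given 1 dose of tamoxifen at 200 mg/kg into the peritoneum, and the sort 2 days later took CD34+ cells that lacked CD31, CD45 and Sca1 and excluded the dye DAPI. The labels do not say whether wild-type animals carried the Cre or the floxed allele, nor whether each library came from its own animal. P-values therefore measure the spread between these libraries, which may be technical.

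Cox10 encodes an enzyme of haem A synthesis, which respiratory complex IV needs. As background, outer membranes are joined by the mitofusins MFN1 and MFN2, and inner membranes by OPA1. OMA1 and YME1L cut OPA1 at different sites, and OMA1 is activated when the membrane potential or respiration fails. DRP1 is recruited from the cytosol by receptors such as MFF and FIS1 and constricts the organelle. In muscle stem cells, the balance of fusion and division is known to bear on quiescence and regeneration.

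Cox10 reads in the 4 wild-type libraries numbered 56, 23, 81 and 52, and those in the 4 Cox10-/- libraries 49, 56, 35 and 7. The log2 fold change of Cox10 was -0.62 ± 0.34 (SE, n = 4 per genotype) and did not pass the test (limma adjusted p = 0.246). Cox10-/- replicates 1, 2 and 3 (3.51, 3.69 and 3.49 log2 CPM) lay inside the wild-type range (3.42 to 4.12), so Cox10 reads alone do not show the deletion there, and genotypes below are those of the labels. Reads counted in genes ranged from 1693349 to 4646766 per library. In both genotypes, replicates 1 and 2 resembled each other, as did replicates 3 and 4, more than other pairs did (chi-square per degree of freedom 2.62 to 3.02, against 4.73 to 7.67). Cox10 differed by -0.10 within replicates 1 and 2 and by -1.14 within replicates 3 and 4, where Cox10-/- replicate 4 stood lowest at 2.05. Differences within these pairs are given below for the 8 genes, their ratios and the list medians. The stem cell marker Pax7 was high in every library (7.15 to 8.77 log2 CPM) and fell by 1.29 ± 0.11 on the log2 scale in Cox10-/- (SE; limma adjusted p = 1.9e-05).

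Some markers of other cells differed with genotype. Of the proteins that the sort gated out, CD31 is encoded by Pecam1, which rose from 3.13 to 4.52 log2 CPM (1.39 ± 0.37, SE; limma adjusted p = 0.024). Sca1 is encoded by Ly6a, which rose from 1.25 to 3.08 (1.83 ± 0.47, limma adjusted p = 0.0202) and was listed at 0 in 1 library, while Ptprc, which encodes CD45, was not in the table. Without 1 library, these calls were lost in 6 and 1 of 8 fits, with the largest limma adjusted p (0.0761 and 0.0692) when Cox10-/- replicate 3 was left out. Over 15 endothelial markers, all measured, summed CPM was 421 to 463 in wild-type and 512 to 598 in Cox10-/-, without overlap, and none of the 15 was at 0 in every library. Of the 15, 5 passed as rises, against 7.58% of all genes, and none as a fall. By sign, 13 lay above 0 and 2 below, Eng (-0.42) and Egfl7 (-0.14). The sum weighs most on its highest genes, Tek (7.17 log2 CPM in wild-type, not called) and Cdh5 (6.62). Over 9 mural markers summed CPM was 1090 to 1230 and 1350 to 1580. The list went both ways, with rises of Myh11 (1.28) and Pdgfrb (0.91) and falls of Cspg4 (-0.60) and Acta2 (-0.36). Both rises held in all 8 fits without 1 library, while the calls of Cspg4 and Acta2 were lost in 1 and 7. Over 13 stem cell markers summed CPM was 2700 to 3360 in wild-type and 1830 to 2000 in Cox10-/-. Fibro-adipogenic markers summed to 3630 to 4780 in wild-type and 3690 to 7490 in Cox10-/-, and fibre markers (12 of 13 measured) to 173 to 277 and 139 to 362. Of 13 haematopoietic markers 3 were in the table (23.5 to 31.3 and 24.2 to 44.6). Of 11 fibro-adipogenic markers, Pdgfra (0.84) and Ly6a rose and Dpt (-0.54) fell, with 6 above 0 and 5 below. Of the 12 fibre markers, Ckm (1.54) and Tnnt3 (1.31) rose and Actn3 (-1.13) fell, with 8 above 0 and 4 below. Of all genes, 7.58% passed as rises and 8.51% as falls. These sums weigh most on their highest genes in wild-type, Col1a1 (10.82 log2 CPM) and Actn3 (6.74). The part of these cells in any difference below was not tested, and in bulk RNA fewer cells of a type and less RNA per cell cannot be told apart.

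Most fusion and fission transcripts differed little between genotypes. Of the 8 genes, 1 passed the test (12.5%), against 16.1% of all 17801 genes tested, so the group was not called more often than the background. That gene was Mfn1, which was higher in Cox10-/- by 0.37 on the log2 scale, or 129% of wild-type. Dnm1l (78.5% of wild-type) and Oma1 (59.2%) were lower without overlap between genotypes, but lay just outside the adjusted threshold of 0.05, and the other 5 genes lay between 89.8% and 104%. The median absolute log2 fold change came to 0.11 over the 8 genes and 0.29 over all genes. These sets were not matched for expression level. By mean level, the 8 genes ran from percentile 40.7 (Oma1) to 90.3 (Yme1l1) of all genes tested. Of the 8, 3 had no overlap between genotypes, a pattern seen in 21.1% of all genes.

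**Figure D1:**
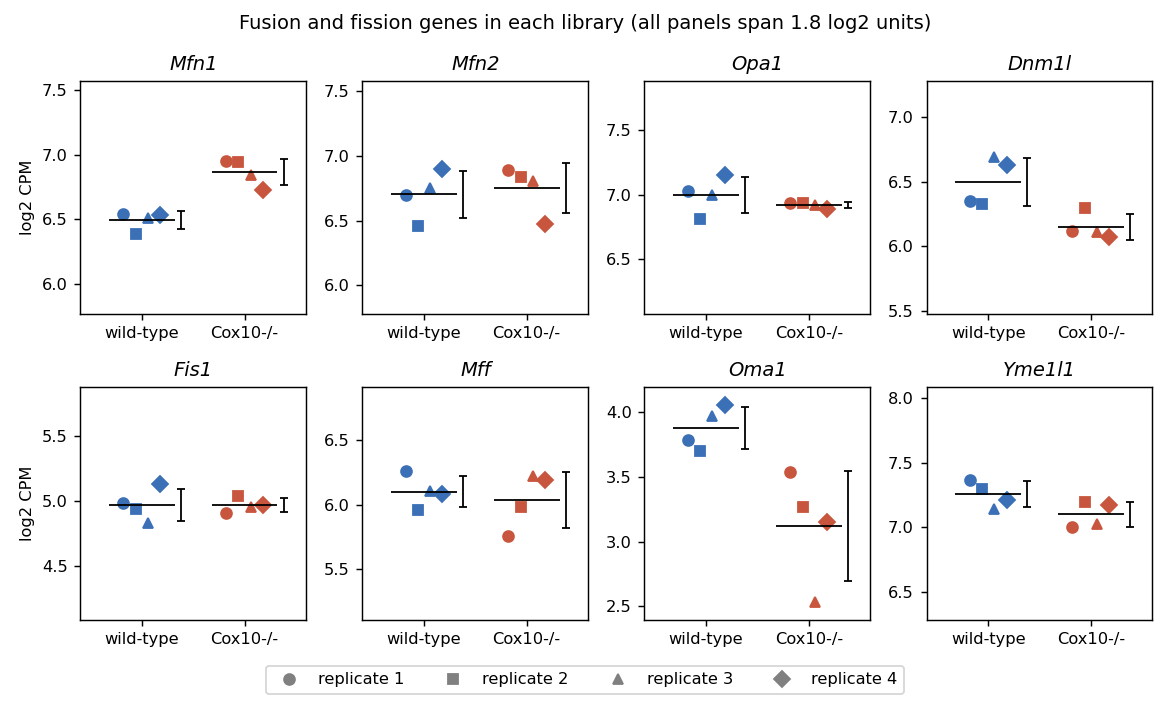
Log2 CPM (y axis) of each fusion and fission gene in the 4 wild-type (blue) and 4 Cox10-/- (red) libraries; marker shapes give the replicate number, lines the mean and bars the SD. The genotypes are apart for Mfn1, Dnm1l and Oma1 and overlap for the other 5 genes.

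The outer-membrane fusion GTPases behaved unequally. Mfn1 stood at 6.54, 6.39, 6.51 and 6.53 log2 CPM in wild-type libraries, in the order of their replicate numbers, and at 6.95, 6.94, 6.84 and 6.73 in Cox10-/- libraries. All values below are given in that order. All 4 Cox10-/- libraries were above all 4 wild-type libraries. The gap between the sets was wider than the spread within the wild-type set, but narrower than that within the Cox10-/- set. The log2 fold change came to 0.37 ± 0.09 (SE, 4 libraries per genotype; limma adjusted p = 0.0162), with a 95% interval of 0.17 to 0.57. The exact two-sided permutation p was 0.0286, the smallest that 70 assignments of libraries can give. The difference was 0.48 within replicates 1 and 2 and 0.27 within replicates 3 and 4. The call held in all 8 fits without 1 library, with limma adjusted p up to 0.0489. It was lost when each resembling pair of libraries was averaged, leaving 2 means per genotype (limma adjusted p = 0.227), and narrowly without a trend in the variance prior (0.0561).

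Mfn2, the other mitofusin, which also tethers mitochondria to the endoplasmic reticulum, stood at 6.70, 6.46, 6.75 and 6.90 log2 CPM in wild-type and at 6.89, 6.84, 6.81 and 6.47 in Cox10-/-. The sets overlapped almost completely. Its log2 fold change came to 0.05 ± 0.12 (SE), with a 95% interval of 86.1% to 124% of wild-type (limma adjusted p = 0.817). The difference was 0.29 within replicates 1 and 2 and -0.19 within replicates 3 and 4.

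The ratio of the mitofusins within a library does not depend on how libraries are scaled. Mfn1 minus Mfn2 was -0.16, -0.07, -0.24 and -0.37 log2 in wild-type libraries, and 0.06, 0.10, 0.03 and 0.26 in Cox10-/- libraries. The ratio, not corrected for length, was thus below 0 in each wild-type library and above 0 in each Cox10-/- library. The longest annotated coding transcript is 4.56 kb for Mfn1 and 4.34 kb for Mfn2. Where the ratio lies against 0 therefore depends on length, while the shift between genotypes does not. The shift of 0.32 log2 had an exact two-sided permutation p of 0.0286, the smallest possible. Adjusted over the 3 ratios examined, this p became 0.0857. A ratio at the smallest p gets that adjusted value whatever its shift, unless another ratio also comes near the smallest p. With the other ratios as they were, the adjusted p could not pass, so it decides nothing about the shift. The shift was 0.20 within replicates 1 and 2 and 0.45 within replicates 3 and 4.

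**Figure D2:**
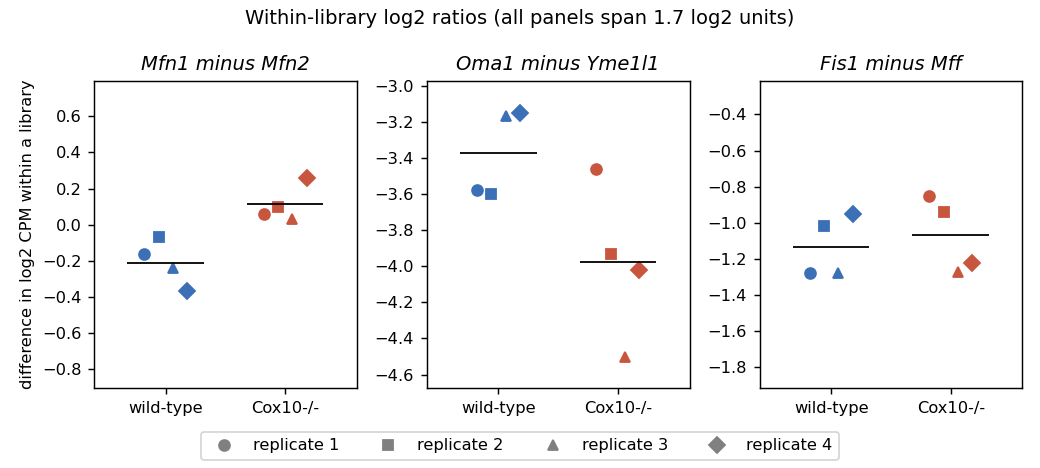
Difference in log2 CPM between 2 genes of a pair within each library (y axis), for the mitofusins, the OPA1 proteases and the division receptors; shapes give the replicate number and lines the mean. Not corrected for transcript length, the ratio of the mitofusins is below 0 in the 4 wild-type libraries and above 0 in the 4 Cox10-/- libraries. The other 2 pairs overlap between genotypes.

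Sequences before the start sites of Mfn1, Mfn2 and Dnm1l are shown because these genes are the mitofusin that rose, its paralogue that did not pass, and the division GTPase nearest the threshold. They are RefSeq sequences of build GRCm38.p6, not the mm9 build named for the deposited data, cut where an annotated transcript begins. The window of Mfn1 is chr3:32529232-32529442 (+), that of Mfn2 is chr4:147904910-147905159 (-), the outermost of its 3 annotated starts, and that of Dnm1l is chr16:16359039-16359281 (-), the outermost of 2. Capitals mark CCAAT, the core of the NF-Y motif, on either strand.
Mfn1: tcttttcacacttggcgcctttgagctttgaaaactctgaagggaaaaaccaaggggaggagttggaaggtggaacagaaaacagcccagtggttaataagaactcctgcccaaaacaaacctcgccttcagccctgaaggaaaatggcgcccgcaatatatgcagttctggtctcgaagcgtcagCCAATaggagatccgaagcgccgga
Mfn2: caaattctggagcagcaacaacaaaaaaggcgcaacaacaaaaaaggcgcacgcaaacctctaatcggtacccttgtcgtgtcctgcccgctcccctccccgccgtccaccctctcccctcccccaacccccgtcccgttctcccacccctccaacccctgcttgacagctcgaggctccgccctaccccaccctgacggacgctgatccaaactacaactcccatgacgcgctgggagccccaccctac
Dnm1l: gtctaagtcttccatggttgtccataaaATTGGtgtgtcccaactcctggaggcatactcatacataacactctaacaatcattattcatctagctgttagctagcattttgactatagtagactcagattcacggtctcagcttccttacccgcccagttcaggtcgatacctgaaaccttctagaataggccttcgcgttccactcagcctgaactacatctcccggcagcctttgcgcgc
Of the stretches printed, which differ in length, that of Mfn2 was the richest in G and C (62.0%, against 50.2% for Mfn1 and 46.9% for Dnm1l). This order depends on the start shown. The 250 bases before the other start of Dnm1l held 70.8%, and those before the other starts of Mfn2 64.0% and 65.2%. CCAAT lay in the 250 bases before a start of 6 of the 8 genes (Dnm1l, Fis1, Mff, Mfn1, Opa1 and Yme1l1), and in 37.5% of 27025 genes with such a window. The NRF1 motif, searched as GCGCANGCG in the same windows on both strands, lay before Opa1 and Oma1, and before 5.86% of genes. The motifs of ERR (TNAAGGTCA), FOXO (GTAAACA), the E-box (CACGTG) and ATF4 (TGATGNAA) lay before none of the 8, and before 1.30%, 3.54%, 6.86% and 3.91% of genes. The 2 NRF1 matches before Opa1 overlap each other, no other matches in the 8 genes do, and a match is a description of letters only.

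Opa1, the fusion GTPase of the inner membrane, stood at 7.03, 6.81, 7.0 and 7.15 log2 CPM in wild-type and at 6.94, 6.94, 6.92 and 6.89 in Cox10-/-. The Cox10-/- values lay inside the wild-type range and were closer together (SD 0.02, against 0.14). The log2 fold change came to -0.07 ± 0.09 (SE; limma adjusted p = 0.624), with a 95% interval of 82.6% to 109% of wild-type. Within replicates 1 and 2 it differed by 0.02, and within replicates 3 and 4 by -0.17.

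The proteases of OPA1 were both lower on average, and neither passed the test. Oma1, the stress-activated protease, stood at 3.79, 3.70, 3.97 and 4.06 log2 CPM in wild-type and at 3.54, 3.27, 2.53 and 3.15 in Cox10-/-. Each Cox10-/- library was below each wild-type library, with replicate 3 the lowest. The log2 fold change came to -0.76 ± 0.25 (SE, 4 libraries per genotype; limma adjusted p = 0.0546), with a 95% interval of 40.9% to 85.6% of wild-type and an exact two-sided permutation p of 0.0286. Oma1 had the fewest reads of the 8 genes, with 49, 28, 73 and 67 recovered reads in wild-type and 50, 42, 18 and 15 in Cox10-/-, so counting error is large for this gene. The difference was -0.34 within replicates 1 and 2 and -1.17 within replicates 3 and 4. It passed in 6 of 21 other fits, with limma adjusted p from 0.0376 to 0.256, among them the fit that adjusts for the split of replicates 1 and 2 from 3 and 4 (0.0447). It did not pass with a block for replicate number (limma adjusted p = 0.0689) or with 2 means per genotype (0.256).

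Yme1l1, the constitutive protease, stood at 7.37, 7.30, 7.14 and 7.21 log2 CPM in wild-type and at 7.0, 7.20, 7.03 and 7.17 in Cox10-/-, with overlap. The log2 fold change came to -0.15 ± 0.09 (SE; limma adjusted p = 0.269), with a 95% interval of 78.4% to 103% of wild-type. Its difference came to -0.24 within replicates 1 and 2 and -0.08 within replicates 3 and 4. Oma1 minus Yme1l1 averaged -3.38 ± 0.25 log2 (SD, n = 4) in wild-type and -3.98 ± 0.43 in Cox10-/-. This difference of -0.60 did not pass an exact two-sided permutation test (p = 0.0857, adjusted over 3 ratios 0.129). It was -0.11 within replicates 1 and 2 and -1.10 within replicates 3 and 4.

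Among the division genes, Dnm1l came closest to the threshold. It stood at 6.35, 6.33, 6.69 and 6.63 log2 CPM in wild-type and at 6.12, 6.30, 6.11 and 6.07 in Cox10-/-. The sets did not overlap, but the highest Cox10-/- library, replicate 2, was only just below wild-type replicate 2. The log2 fold change came to -0.35 ± 0.11 (SE, 4 libraries per genotype; limma adjusted p = 0.0537), with a 95% interval of 66.2% to 93.0% of wild-type and an exact two-sided permutation p of 0.0286. The difference was -0.13 within replicates 1 and 2 and -0.57 within replicates 3 and 4. It passed in 5 of 21 other fits, with limma adjusted p from 0.0320 to 0.313, among them the fit that adjusts for the split of replicates 1 and 2 from 3 and 4 (0.0336). It did not pass with a block for replicate number (limma adjusted p = 0.0641) or with 2 means per genotype (0.313). Dnm1l shares exonic bases with an annotated gene of the opposite strand, as does Mff, and whether the counting used strand is not stated in these sources.

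Neither receptor that brings DRP1 to the outer membrane was called. Mff stood at 6.26, 5.96, 6.11 and 6.08 log2 CPM in wild-type and at 5.76, 5.98, 6.22 and 6.19 in Cox10-/-. Its log2 fold change came to -0.07 ± 0.12 (SE; limma adjusted p = 0.762), with a 95% interval of 79.3% to 115% of wild-type, and the sign differed between replicates 1 and 2 (-0.24) and replicates 3 and 4 (0.11). Fis1 stood at 4.98, 4.94, 4.83 and 5.13 log2 CPM in wild-type and at 4.91, 5.04, 4.95 and 4.97 in Cox10-/-, with every Cox10-/- value inside the wild-type range. Its mean was 4.97 log2 CPM in both genotypes, and the 95% interval ran from 82.5% to 121% of wild-type (limma adjusted p = 0.992), with differences of 0.01 within replicates 1 and 2 and -0.02 within replicates 3 and 4. Fis1 minus Mff differed by 0.06 log2 between genotypes (exact two-sided permutation p = 0.514, also 0.514 adjusted over 3 ratios), and by 0.25 and -0.13 within the same pairs.

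**Figure D3:**
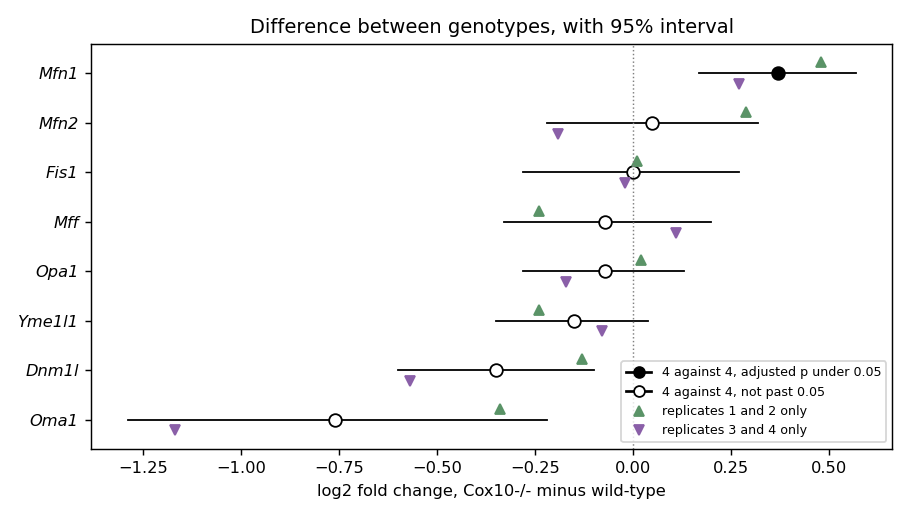
Log2 fold change of each gene, Cox10-/- minus wild-type (x axis), with its 95% interval from the limma fit; triangles give the difference within replicates 1 and 2 and within replicates 3 and 4. Mfn1 alone is filled, as past the adjusted threshold of 0.05, and the intervals of Dnm1l and Oma1 also lie on 1 side of 0 before adjustment.

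Levels of different genes were compared per kb of the longest annotated coding transcript. In wild-type cells the order was Fis1 (33.2 ± 2.88 CPM per kb, SD, n = 4), Mff (33.0), Yme1l1 (32.5), Mfn2 (24.1), Dnm1l (23.0), Opa1 (20.6), Mfn1 (19.8 ± 0.93) and Oma1 (7.73 ± 0.878). The ranges of Fis1, Mff and Yme1l1 overlapped, as did those of Mfn2, Dnm1l and Opa1, and that of Mfn1 (18.4 to 20.4) lay inside that of Opa1 (18.0 to 22.8) and just met those of Mfn2 and Dnm1l (both from 20.3). No library of Oma1 (6.79 to 8.71) came near the rest. In Cox10-/- cells Mfn1 averaged 25.6 ± 1.79 CPM per kb, beside 25.0 ± 3.11 for Mfn2. Dnm1l averaged 17.9 ± 1.31, so the ranges of Mfn1 (23.3 to 27.1) and Dnm1l (16.9 to 19.9), which just met in wild-type, were apart. These orders rest on annotated lengths of another build and on 1 transcript per gene.

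**Figure D4:**
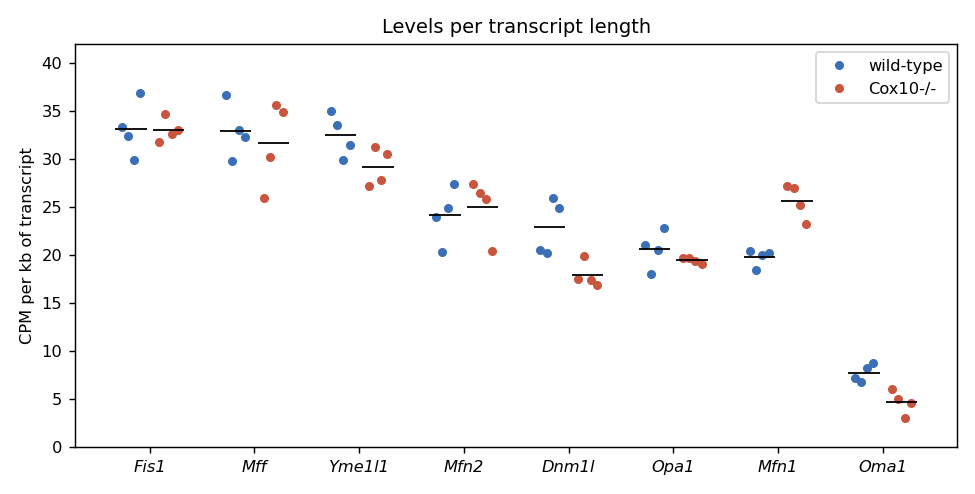
CPM per kb of transcript (y axis) for each gene, ordered by the wild-type mean; points are libraries and lines are means. Fis1, Mff and Yme1l1 form the highest set in wild-type and Oma1 is lowest in both genotypes.

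Across the 8 libraries, Dnm1l and Oma1 had the highest Pearson correlation of any pair of the 8 genes (r = 0.79), and Mfn1 ran opposite to Yme1l1 (-0.68), Oma1 (-0.64) and Dnm1l (-0.63). These values describe 8 libraries that share genotype and depth differences. Among 8959 other genes with a mean of at least 4 log2 CPM, those most like Mfn1 were Cds2 (r = 0.989) and Crim1 (0.986). The gene most like Dnm1l was Synrg (0.997), and those most like Oma1 were Mrps5 (0.981) and Cdkn2aipnl (0.971). For Mfn2 they were Tecpr1 (0.984) and Dexi (0.974), for Opa1 B3galnt1 (0.967) and Magee1 (0.963), and for Yme1l1 Eif3m (0.995) and Atp5f1 (0.987). Mff had Mettl9 (0.930) and Tmem64 (0.905), and Fis1 had lower maxima, with Srp9 (0.859) and Adk (0.774). Each was picked as among the highest of 8959 genes over only 8 libraries. Such a choice alone yields high r values, and none of them was tested.

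Genes around this core were described from lists of their roles, chosen by function with earlier results of these data known. Of 88 further genes tested in 6 lists, 10 rose and 11 fell (23.9% called, against 16.1% of all genes; 7.58% of all genes rose and 8.51% fell). The median log2 fold change came to -0.11 over these genes and -0.06 over all genes. A difference between this share and that of the 8 core genes was not tested. As the base for the unadjusted counts below, 5510 of all 17801 genes tested had an unadjusted limma p under 0.05, in either direction.

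Among the 6 lists, DRP1 adaptors and other division factors had the most rises. Of 13 tested, 6 rose and none fell, with a median of 0.35 (6 and 1 at an unadjusted limma p under 0.05). That median was 0.29 within replicates 1 and 2 and 0.31 within replicates 3 and 4. It was 0.21 over the 12 genes left by a filter of mean log2 CPM of at least 1, with 6 rises. Inf2, a formin that builds actin at sites of division on the endoplasmic reticulum, went from 7.33 ± 0.10 to 8.07 ± 0.10 log2 CPM (SD, n = 4), a rise of 0.74 ± 0.09 (SE; limma adjusted p = 1.63e-04). Dnm2, a dynamin also of endocytosis, rose by 0.60 ± 0.08 (limma adjusted p = 5.27e-04). Fmn2, an actin-nucleating formin, rose by 1.28 ± 0.21 and Tbc1d15, a Rab GTPase-activating protein that binds FIS1, by 0.53 ± 0.11. These 4 kept their calls in all 8 fits without 1 library. Mtfr2 (1.04) and Spire1 (0.35), named after their values were seen, lost theirs in 5 and 4 of those fits (largest limma adjusted p 0.0761 and 0.0711, when Cox10-/- replicate 3 was left out). Also in this list, the DRP1 receptors Mief1 (-0.27) and Mief2 (-0.25), which bind the GTPase as MFF does, did not pass. With 2 means per genotype 3 of the 6 calls held.

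Cristae genes were the list with the most falls for its size. Of 11 genes of the MICOS complex, which shapes cristae junctions, and its partners, 4 fell and none rose, with a median of -0.43 (7 and 1 at an unadjusted limma p under 0.05). It was -0.27 within replicates 1 and 2 and -0.58 within replicates 3 and 4. Chchd6 fell by 1.82 ± 0.35, from 2.33 to 0.51 log2 CPM (limma adjusted p = 0.00418), and kept its call in all 8 fits without 1 library. It was listed at 0 in Cox10-/- replicate 4, so the fold is understated. Samm50, the outer-membrane sorting protein that MICOS contacts, fell by 0.50 ± 0.13, Atp5k, an ATP synthase subunit, by 0.99 ± 0.30, and Apoo by 1.24 ± 0.39. Leaving out 1 library removed these calls in 2, 6 and 6 of 8 fits. The largest limma adjusted p was 0.0639 when wild-type replicate 4 was left out, 0.135 when wild-type replicate 1 was, and 0.132 when Cox10-/- replicate 3 was. Apoo was listed at 0 in Cox10-/- replicates 3 and 4 and has a related pseudogene in the table, so its value is uncertain. The count of falls ranged from 1 to 5 over those 8 fits, and was 1 on recovered reads and 1 with 2 means per genotype. The central MICOS subunit Immt stood at 6.89 ± 0.04 log2 CPM (SD) in wild-type and 6.67 ± 0.13 in Cox10-/- (limma adjusted p = 0.127).

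Of 14 further inner-membrane genes that bear on OPA1 processing, 3 fell and none rose, with a median of -0.29 (6 and 0 at an unadjusted limma p under 0.05). The list median lay at -0.07 within replicates 1 and 2 and at -0.38 within replicates 3 and 4. They were Romo1, a small redox-sensitive membrane protein (-1.05 ± 0.28), and the m-AAA protease subunits Spg7 (-0.54 ± 0.16) and Afg3l1 (-0.48 ± 0.15). Leaving out 1 library removed these calls in 5, 6 and 6 of 8 fits. The largest limma adjusted p was 0.0887 for Romo1, when wild-type replicate 1 was left out, and 0.118 and 0.130 for Spg7 and Afg3l1, when wild-type replicate 3 was. None of the 3 held with 2 means per genotype, and the count of falls ranged from 0 to 4 without 1 library. The partner subunit Afg3l2 stood at 0.10 ± 0.11 and the prohibitin Phb2 at -0.35 ± 0.11 (limma adjusted p = 0.0528).

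None of 10 outer-membrane fusion helpers was called by limma, by limma-voom on recovered reads or at an unadjusted limma p under 0.05, and their median was -0.02. It changed sign between replicates 1 and 2 (0.18) and replicates 3 and 4 (-0.23). They include the MITOL ligase gene March5, which ubiquitinates fusion and division proteins and is listed under a date in the table. Its wild-type mean was 6.01 ± 0.10 log2 CPM (SD, n = 4), and its Cox10-/- mean 6.0 ± 0.04.

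Of 24 enzymes known to modify DRP1 or to act on it, 2 rose and 3 fell, with a median of -0.08 (-0.05 within replicates 1 and 2, -0.11 within replicates 3 and 4). Camk2d, a calcium-dependent kinase, rose by 0.59 ± 0.09 (limma adjusted p = 0.00101) and kept its call in all 8 fits without 1 library. Cdk1, the mitotic kinase that phosphorylates DRP1 for division in mitosis, rose by 1.31 ± 0.40 and lost its call in 6 (limma adjusted p = 0.125 when Cox10-/- replicate 3 was left out). The protein kinase A subunits Prkaca (-0.36 ± 0.11) and, named after its values were seen, Prkacb (-0.28 ± 0.08), and the small GTPase Rala (-0.44 ± 0.12), fell. Those 3 calls were lost after median centring of libraries (limma adjusted p = 0.137, 0.284 and 0.0630). Without 1 library they were lost in 5, 7 and 5 fits, with a largest limma adjusted p of 0.107 (wild-type replicate 4 left out), 0.137 (wild-type replicate 1) and 0.0873 (Cox10-/- replicate 3).

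Of 16 genes of mitochondrial transport and anchoring, 2 rose and 1 fell, with a median of -0.09 that changed sign between replicates 1 and 2 (0.13) and replicates 3 and 4 (-0.34). Snph, which encodes the anchoring protein syntaphilin, rose by 1.24 ± 0.22, from 2.65 to 3.89 log2 CPM (limma adjusted p = 0.00267). Armcx2 fell by 0.49 ± 0.11, and both calls held in all 8 fits without 1 library, though neither with 2 means per genotype (0.0659 and 0.127). The kinesin Kif1b rose by 0.25 ± 0.07. It lost its call in 5 of those fits (limma adjusted p = 0.0978 when wild-type replicate 3 was left out) and after median centring (0.112). The Miro GTPase gene Rhot1, the adaptor gene Trak1 and the kinesin gene Kif5b lay at -0.02, -0.22 and -0.07 and were not called.

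**Figure D5:**
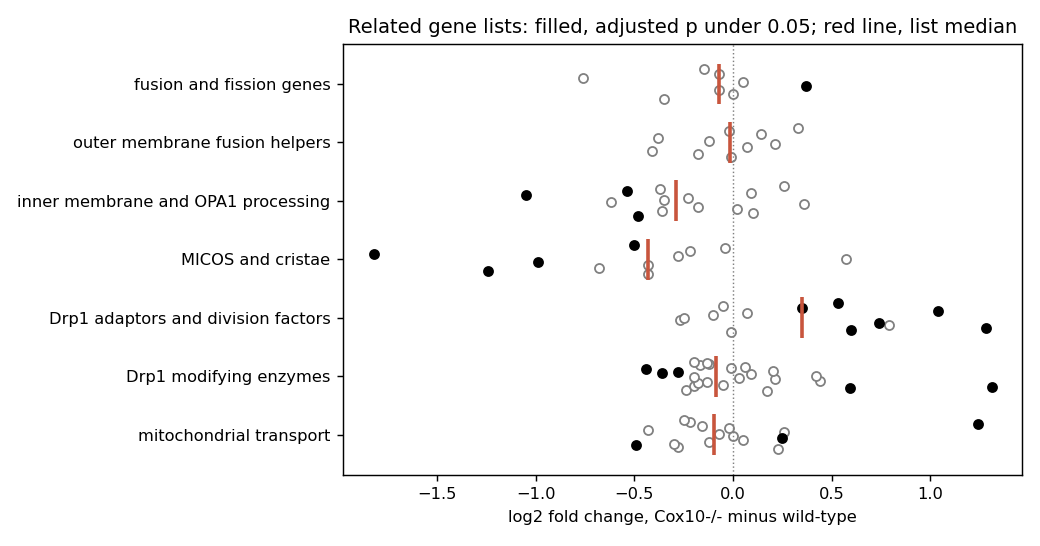
Log2 fold change, Cox10-/- minus wild-type (x axis), of each gene in the core group and the 6 related lists; filled points passed the adjusted threshold of 0.05 and red lines are list medians. The core genes gather near 0, with Mfn1 filled, and the median of the division factors lies at 0.35.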

How the data were processed

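RNA-seq of sorted muscle stem cells was available as 1 table with gene symbols. It holds log2 CPM as deposited by the authors, rounded to 2 decimals, with every CPM of 1 or less at 0, as tested on the file. Per the submitters' processing notes, the tools were Trim Galore, HISAT2, featureCounts and DESeq2, with build mm9; versions and strand use are not stated. A total of 1054 rows without a gene held no values. The authors' mean column was not used.

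Genotypes were compared with limma 3.58.1 (R 4.3.3) on the deposited log2 values, with genotype as the sole term, a trended variance prior, no pseudocount and Benjamini-Hochberg adjustment at 0.05. Genes above 0 in at least 4 of 8 libraries (17801) were tested. The functions were tested on simulated data. Low values fell on steps of 1 read (100% within 0.1 of a whole number up to 20 reads), which gave recovered reads and depth. Depth limits precision most for low genes, and intervals cover the spread between libraries.

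Deviations of same-numbered libraries correlated weakly across genotypes, all above 0 (0.059 to 0.176, against -0.266 to 0.213 for other numbers). The main fit used no block, and a block for replicate number was an alternative. Deviations correlated across genotypes at -0.034 to 0.213 within replicates 1 and 2 or 3 and 4, and at -0.266 to 0.028 between those sets, and a term for this split was an alternative. Members, lists and pairs were chosen with earlier results of these data known. Named genes are the 8 members, up to 4 called genes per list by smallest p, and the 2 genes most correlated with each member, with predicted gene models left out; a gene that this rule names for Dnm1l is not reported here. Marker genes were named as checks, and list genes named as not called were chosen by role after their values were seen. Transcript lengths came from GENCODE M21 and promoters from RefSeq GRCm38.p6, where all 8 members matched. Alternatives covered filters, pseudocount, scaling, variance prior, limma-voom on recovered reads, replicate terms, depth and leaving out libraries.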

Additional observations from a re-analysis of the deposited data

Results flagged for a closer look

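1 of 24 sets of 4 libraries examined held a library far from the others: Cox10 in Cox10-/- libraries, where replicate 4, at 2.05 log2 CPM and 7 reads, lay below the other 3 (3.49 to 3.69). Its gap to the nearest of the others was 0.878 of the whole range and past Dixon's 95% limit for 4 values. Chance alone marks about 1 such set in 20. No fusion or fission gene and no ratio was marked.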

How the results depend on the processing

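Over 21 other fits the call of Mfn1 held in 19 (log2 fold change 0.34 to 0.46), failing without a variance trend (0.37, limma adjusted p = 0.0561) and with 2 means per genotype (0.37, limma adjusted p = 0.227). Of the 8 genes, 2 were called with log2(CPM + 1), quantile normalization and the robust prior, where 2771, 3479 and 2883 of all genes were. The count was 3 with limma-voom, a term for replicates 1 and 2 against 3 and 4, and log2 depth (3017, 3838 and 3892 of all genes). It was 0 without a variance trend and with 2 means per genotype (2210 and 858 of all genes). In the main fit 2863 of all genes were called. Without 1 library, 1 to 2 of the 8 were called, with Dnm1l added without wild-type replicate 2 (-0.41, limma adjusted p = 0.0344) and Oma1 without Cox10-/- replicate 1 (-0.90, 0.0390).

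Dnm1l also passed with quantile normalization (-0.33), limma-voom (-0.35), the replicate term (-0.35) and log2 depth (-0.33), and Oma1 with log2(CPM + 1) (-0.69), the robust prior (-0.76), limma-voom (-0.74), the replicate term (-0.76) and log2 depth (-0.73). Near 0, signs turned after median centring for Opa1 (0.01), Fis1 (0.08) and Mff (0.02), and for Fis1 with quantile normalization (0.08) and limma-voom (0.00). Without 1 library, log2 fold changes were 0.34 to 0.42 for Mfn1, -0.03 to 0.14 for Mfn2, -0.14 to -0.02 for Opa1, -0.41 to -0.29 for Dnm1l, -0.05 to 0.05 for Fis1, -0.13 to 0.03 for Mff, -0.90 to -0.56 for Oma1 and -0.19 to -0.12 for Yme1l1. The ratio of Mfn1 to Mfn2 then shifted by 0.27 to 0.37, that of Oma1 to Yme1l1 by -0.77 to -0.43 and that of Fis1 to Mff by -0.01 to 0.13. Both the Mfn1 and the Oma1 ratio had an adjusted exact permutation p of 0.0429 without Cox10-/- replicate 1, where both reached the smallest exact p.

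Within replicates 1 and 2, and then 3 and 4, differences moved by more than 1 SD for Mfn1 (0.48, 0.27), Mfn2 (0.29, -0.19), Dnm1l (-0.13, -0.57), Mff (-0.24, 0.11), Oma1 (-0.34, -1.17), and the ratios of Mfn1 to Mfn2 (0.20, 0.45), Oma1 to Yme1l1 (-0.11, -1.10) and Fis1 to Mff (0.25, -0.13).

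Over all genes, 2863 were called (47.1% rises, 59.1% after median centring), 858 with 2 means per genotype and 1810 to 2883 without 1 library (1880 without wild-type replicate 1, 1810 without Cox10-/- replicate 3). Other fits called more, among them 3201 with the replicate block, 3479 with quantile normalization, 3838 with the replicate term and 3892 with log2 depth. The replicate block left Mfn1 called (0.37, limma adjusted p = 0.0233) and changed no other call of the 8. Not every library correlated best with its own number. The causes of these changes were not tested. Depth limits Oma1 most, at 15 to 73 reads.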
